A study of Arabidopsis thaliana with 54 samples.

Results

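The microRNA families miR164 and miR394 were followed in small RNA libraries from Arabidopsis thaliana seedlings that had been moved to different day lengths. Every microRNA row of the count table whose name starts with ath-miR164 or ath-miR394 followed by a letter was taken, which gave 5 of 286 microRNA rows: 4 of miR164 and 1 of miR394. The miR164 rows were ath-miR164b-5p_ath-miR164a, ath-miR164b-3p, ath-miR164c-5p and ath-miR164c-3p, and the miR394 row was ath-miR394b-5p_ath-miR394a. A name that joins several microRNAs is a single row shared by microRNAs with the same mature sequence. All 5 rows passed the filter on low counts, which left 149 microRNA rows in the tests.

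All seedlings were the wild-type accession Columbia 0 (Col-0), grown on plates, and each sample was RNA of whole seedlings with shoot, hypocotyl and root together. Seeds were kept in the dark for 48 h of stratification and seedlings then grew for 10 days with 12 h of light and 12 h of dark. On day 11 they went to a long day (16 h light, 8 h dark), to a short day (8 h light, 16 h dark), or remained in the equinox day of 12 h light and 12 h dark. Harvests were on day 13 at 4, 8, 12, 16, 20 and 24 h after lights-on (Zeitgeber time, ZT) in each photoperiod, with 3 replicate libraries, A to C, at each time, so that 54 libraries fell into 18 groups of 3. The equinox seedlings alone were not moved, so in comparisons with them an effect of day length and an effect of the move cannot be told apart. The labels do not say whether replicates were separate plates or sowings, and p-values cover only the spread between the libraries at hand, which may be technical. In whole-seedling RNA, fewer cells of a type and less RNA per cell cannot be told apart.

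MicroRNAs are cut from a hairpin precursor as a short duplex, of which one strand is kept in an ARGONAUTE protein and guides the cleavage or silencing of transcripts with a complementary site. In Arabidopsis, miR164 acts on transcripts of NAC transcription factors, among them CUC1 and CUC2, which set the boundaries between the shoot meristem and new organs, NAC1, which takes part in lateral root formation, and ORE1, which promotes leaf senescence. miR394 acts on the transcript of the F-box protein LEAF CURLING RESPONSIVENESS (LCR) and is known as a mobile signal from the outer layer of the shoot apex that keeps the stem cells below it competent.

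The mature sequences show which rows can be told apart by their reads, and they are printed 5′ to 3′ with the seed, bases 2 to 8, in capitals, from RefSeq's TAIR10.1 genome and annotation.
miR164a and miR164b-5p: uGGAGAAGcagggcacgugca
miR164c-5p: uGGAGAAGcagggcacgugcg
miR164c-3p: cACGUGUUcuacuacuccaac
miR164b-3p: cAUGUGCCcaucuucaccauc
miR394a and miR394b-5p: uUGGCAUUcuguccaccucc
The 5p microRNAs of miR164 share the seed GGAGAAG and differ by the single substitution A21G, where positions count from 1 at the 5′ end and the first base is that of miR164a and miR164b-5p. miR164a and miR164b-5p are identical over 21 bases, and miR394a and miR394b-5p over 20 bases, so each shared row is the sum of 2 loci that sequence cannot separate. The 3p microRNAs of miR164b and miR164c differ from each other at 8 of 21 positions, and their seeds differ from the seed of the 5p microRNAs. miR394b-3p, which the annotation also lists, had no row in the count table and could not be followed.

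The precursors of miR164c and miR164b are shown because both arms of each were counted, and the capitals mark the mature 5p and 3p microRNAs within each hairpin.
MIR164c: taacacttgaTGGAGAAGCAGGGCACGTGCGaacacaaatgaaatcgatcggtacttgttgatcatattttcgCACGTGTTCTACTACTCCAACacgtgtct
MIR164b: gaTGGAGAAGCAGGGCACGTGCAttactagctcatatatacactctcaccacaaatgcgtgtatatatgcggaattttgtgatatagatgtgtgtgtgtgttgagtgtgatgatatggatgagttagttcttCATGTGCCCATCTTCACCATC
In TAIR10.1, MIR164c (AT5G27807) lies at chr5:9852674-9852775 and MIR164b (AT5G01747) at chr5:287584-287736, both on the plus strand. MIR164a (AT2G47585) lies at chr2:19520752-19520864, MIR394a (AT1G20375) at chr1:7058194-7058310 and MIR394b (AT1G76135) at chr1:28568808-28568928, also on the plus strand. None of the 5 hairpins overlapped another annotated gene, so each is intergenic in that annotation. No source used here gives the build behind the counts, and these coordinates come from matching the annotation and not from the count table.

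The target sites show how the 5p microRNAs read their transcripts, and here the capitals mark site bases that are mismatched or form a G:U pair with miR164c-5p or, for LCR, with miR394b-5p.
CUC1 and CUC2: AgcacgtgTcctgTttctcca
NAC1: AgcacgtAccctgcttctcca
ORE1: cTcacgtgAcctgcttctccG
LCR: ggaggtTgacagaatgccaa
Each was the best ungapped match in the coding sequence. The CUC1 site (AT3G15170, chr3:5111137-5111157, plus strand) and the CUC2 site (AT5G53950, chr5:21902301-21902321, minus strand) had the same letters, with 3 such bases, of which 2 were G:U pairs. The NAC1 site (AT1G56010, chr1:20947142-20947162, minus strand) had 2 such bases. The ORE1 site (AT5G39610, RefSeq symbol NAC6, chr5:15858797-15858817, minus strand) was the only one of the 6 NAC sites examined with fewer such bases against miR164c-5p, at 3, than against miR164a and miR164b-5p, at 4. The sites of NAC080 and NAC100 had 3 with miR164c-5p and 2 with miR164a and miR164b-5p. The LCR site (AT1G27340, chr1:9497605-9497624, plus strand) had 1 such base. Levels of the target transcripts were not analysed here.

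A library held between 13.7 and 23.3 M counts, with a median of 17.6 M. Between 79.6% and 92.9% of them sat in 1 row named genome, which is no gene and was set aside. The remaining counts came to 1.33 to 3.59 M a library, and microRNAs made up 6.98% to 14.3% of them. The 5 rows together took 26312 counts, or 0.198% of all microRNA counts. Levels are given as CPM, the depth-scaled count unit of edgeR's cpm function, with TMM (trimmed mean of M values) scaling. The library totals behind them are the counts of the rows that passed the filter, without the genome entry. Differences are given as log2 fold changes ± SE, where the SE is worked back from the F statistic of edgeR's test. It is the absolute log2 fold change divided by the square root of F. Along the first principal component, which held 21.7% of the variance, 5 short-day libraries lay outside the span of all libraries from the other photoperiods: B of ZT 4, C of ZT 12, B of ZT 16, A of ZT 20 and C of ZT 24.

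miR164c-3p and miR394 were the most abundant of the 5 rows and miR164b-3p the least. Over the 54 libraries the level of miR164c-3p was 77.1 ± 25.2 CPM (SD), with 57 to 308 counts a library. The level of miR394 was 68.9 ± 37.3 CPM, with 53 to 519 counts. miR164c-3p exceeded miR394 in 33 of 54 libraries, so the order of this pair was not steady from library to library.

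The row shared by miR164a and miR164b-5p stood at 28.8 ± 14.3 CPM, with 17 to 231 counts a library, and was below miR394 in 54 of 54 libraries. miR164c-5p followed at 19.8 ± 7.67 CPM (14 to 104 counts), below the shared row in 48 of 54 libraries. miR164b-3p stood at 8.84 ± 5.06 CPM with 4 to 75 counts and was below miR164c-5p in 48 of 54 libraries. At a median of 17.5 counts a library, it is the row with the coarsest values. Small RNA levels of different rows also depend on how each sequence ligates and amplifies, so the order between rows is that of read counts.

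Among the 149 microRNA rows, miR164c-3p ranked 45, between miR169f-3p (93.1 CPM) and the row of miR170-5p and miR171a-5p (75.3 CPM). miR394 ranked 49, between the row of miR5995b and miR5595a (72.0 CPM) and miR866-3p (66.3 CPM). The shared miR164a and miR164b-5p row ranked 76, next to miR160 (29.7 CPM) and miR393a-3p (27.6 CPM). miR164c-5p ranked 86, between miR840-3p (20.2 CPM) and miR823 (19.1 CPM), and miR164b-3p ranked 108, between the miR172b-5p and miR172e-5p row (9.13 CPM) and miR824-5p (8.56 CPM). None of these gaps between neighbours was larger than the SD of the row over libraries.

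**Figure D1:**
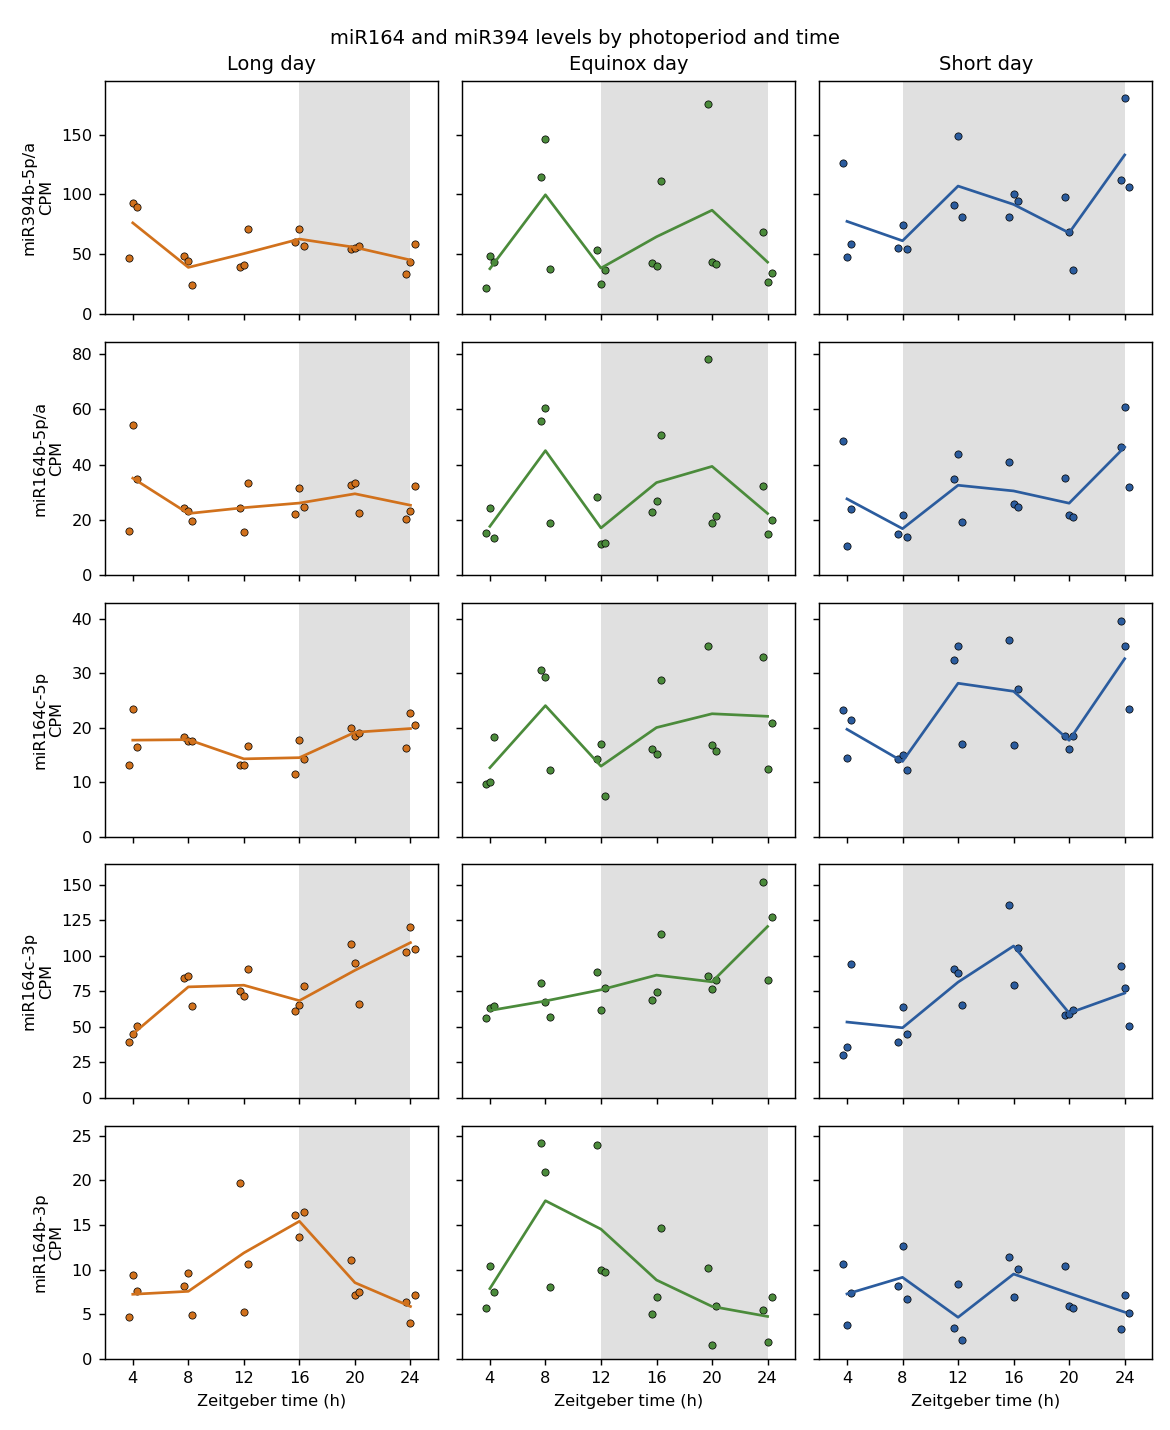
Levels of the 5 rows in CPM (y axis, from 0, its own scale in each row of panels) against Zeitgeber time in hours (x axis) in long, equinox and short days. Points are single libraries, 3 a time, lines join their means, and grey marks the dark period. The miR394 points of short days lie above those of long days at ZT 8, 12, 16 and 24, and the miR164c-3p means are lowest at ZT 4 in long and equinox days and at ZT 8 in short days.

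The median level of miR394 was higher in short days than in either of the other photoperiods. In long days its level ran from 24.7 to 92.9 CPM with a median of 55.1, in equinox days from 21.5 to 175.2 with a median of 42.9, and in short days from 36.6 to 180.3 with a median of 86.2 (18 libraries each). The 3 ranges overlapped, and the highest equinox library was close to the highest short-day library.

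Across all features, the difference between long and short days passed an adjusted p of 0.05 for 25.1% of the 8869 tested (quasi-likelihood test of edgeR, Benjamini-Hochberg adjustment). Among the 149 microRNA rows, 12 passed as higher and 31 as lower in long days. Of the 5 rows, 1 passed, which was miR394, lower in long days by a log2 fold change of -0.69 ± 0.20 (adjusted p = 0.0104). Its mean was lower in long days at 6 of 6 times, and the long-day triplet lay wholly below the short-day triplet at 4 of 6. How often triplets separate over all features was not counted. Statements on the overlap of triplets, here and below, are therefore descriptions only. The miR394 difference passed in all 54 fits that left out a single library (adjusted p 0.00484 to 0.0202). It missed without the libraries of letter A (-0.54, adjusted p = 0.0901) and without those of letter B (-0.62, adjusted p = 0.131).

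Between short and equinox days 32.8% of the features passed, and again 1 of the 5 rows did. Among the 149 microRNA rows, 13 passed as higher and 15 as lower in short days. miR394 was higher in short days by 0.59 ± 0.20 (adjusted p = 0.0203), with a higher mean at 4 of 6 times and non-overlapping triplets at 2 of 6. The call was lost without any 1 of 7 libraries, with adjusted p between 0.0504 and 0.0709: the equinox libraries C of ZT 24, B of ZT 20 and C of ZT 20, and the short-day libraries B of ZT 24, A of ZT 4, B of ZT 12 and A of ZT 20. It was also lost without the libraries of letter B (0.42, adjusted p = 0.296). This comparison and the one above share the short-day libraries.

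Between long and equinox days 15.7% of the features passed by edgeR and 18.4% by DESeq2, and 0 of the 5 rows did by either. At an unadjusted p under 0.05, where the share of all features was not worked out, 0 of the 5 rows were held too. The miR394 value was -0.10 ± 0.20 (adjusted p = 0.801), and the 5 rows lay between -0.11 and -0.0053. With the genome entry counted in the totals, each of the 5 values turned positive.

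The short-day excess of miR394 was widest at ZT 24 and ZT 12. At ZT 24 the short-day libraries gave 112, 180.3 and 106 CPM, the long-day libraries 33.3, 43.4 and 59.0, and the equinox libraries 68.7, 27.0 and 34.8. All 3 short-day libraries lay above all 6 others. At ZT 12 the short-day libraries gave 91.4, 148.7 and 81.0 CPM, against 39.5, 40.8 and 71.5 in long days and 53.4, 25.5 and 36.6 in equinox days, again without overlap.

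At ZT 8 the short-day values of 55.7, 74.2 and 54.1 CPM lay above the long-day values of 48.6, 44.1 and 24.7, while the equinox values of 115, 146.3 and 38.1 reached higher than both. At ZT 16 the short-day values of 80.9, 99.99 and 94.2 CPM lay above the long-day values of 60.4, 71.0 and 56.9. At ZT 20 the short-day values of 98.3, 69.0 and 36.6 CPM fell on both sides of the long-day values of 54.6, 55.6 and 57.3. At ZT 4 short days gave 126, 48.1 and 58.5 CPM and long days 46.7, 92.9 and 89.3, which is the time at which the means were closest.

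Tested at single times, long against short day reached no adjusted p under 0.05 for any of the 5 rows, as 0.124% of the features passed at ZT 4, 1.36% at ZT 8, 3.47% at ZT 12, 3.91% at ZT 16, 1.23% at ZT 20 and 0.631% at ZT 24. The smallest adjusted p was that of miR394 at ZT 24 (-1.56 ± 0.50, adjusted p = 0.107), a value that DESeq2 called (-1.74, adjusted p = 0.0238). By DESeq2's test 2.64% of the features passed at ZT 24. At the other times it called 0 of the 5 rows, beside shares of all features between 0.44% at ZT 4 and 5.06% at ZT 16. At an unadjusted p under 0.05, edgeR held 3 rows at ZT 12, 1 at ZT 16, 1 at ZT 24 and 0 at ZT 4, 8 and 20. Shares of all features at that level were not worked out. The rows at ZT 12 were miR394 (-1.08 ± 0.49, adjusted p = 0.243), miR164c-5p (-0.98 ± 0.40, adjusted p = 0.183) and miR164b-3p (1.33 ± 0.56, adjusted p = 0.193), with negative values for the 5p rows and a positive one for the 3p row.

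The miR394 difference was as large without the 5 short-day libraries that lay apart. Their miR394 levels were 48.1, 81.0, 99.99, 98.3 and 106 CPM, within the range of the other short-day libraries. With them left out, the long-day against short-day value was -0.77 (adjusted p = 0.0121) and the short-day against equinox value 0.67 (adjusted p = 0.0198).

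miR164c-5p also had a lower value in long than in short days, and it did not pass. Its level ran from 11.5 to 23.5 CPM in long days (median 17.6), from 7.54 to 35.1 in equinox days (median 16.5) and from 12.2 to 39.7 in short days (median 20.0). The long-day libraries covered the narrowest span, with a coefficient of variation of 19.3% against 45.0% in equinox and 38.4% in short days. The log2 fold change of long against short days was -0.38 ± 0.16 (adjusted p = 0.0849). It passed with DESeq2's test (-0.46, adjusted p = 0.0148), with DESeq2's size factors (-0.45, adjusted p = 0.0279) and without the 5 short-day libraries apart (-0.57, adjusted p = 0.0257).

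By time, the long-day triplet of miR164c-5p lay below the short-day triplet at ZT 12 and ZT 24 and above it at ZT 8. At ZT 24 the short-day libraries gave 39.7, 34.98 and 23.4 CPM and the long-day libraries 16.2, 22.8 and 20.6. At ZT 12 the values were 32.5, 35.1 and 17.0 CPM in short and 13.2, 13.1 and 16.6 in long days. At ZT 8 the order was the reverse, with 14.3, 15.0 and 12.2 CPM in short and 18.3, 17.6 and 17.6 in long days, so the direction of the difference was not the same at all times.

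The shared row of miR164a and miR164b-5p, which targets the same transcripts, showed no difference past the threshold between photoperiods. It ran from 15.7 to 54.4 CPM in long days (median 24.4), from 11.3 to 78.0 in equinox days (median 22.0) and from 10.6 to 60.7 in short days (median 25.3). Long against short day gave -0.10 ± 0.21 (adjusted p = 0.761), and its mean was higher in long days at 3 of 6 times and lower at 3 of 6. Triplets of this row overlapped between every pair of photoperiods at every time.

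The 3p microRNAs of miR164 had values of the opposite sign to miR394 in the same contrast, and neither passed. miR164c-3p ran from 39.2 to 120.3 CPM in long days (median 77.0), from 56.4 to 152.2 in equinox days (median 77.1) and from 30.2 to 135.6 in short days (median 64.6). Long against short day gave 0.15 ± 0.14 (adjusted p = 0.456), which turned to -0.036 without the 5 short-day libraries apart. Its long-day triplet lay above the short-day triplet at ZT 8, 20 and 24 and below it at ZT 16. Short against equinox day gave -0.24 ± 0.14 (adjusted p = 0.176), and passed without the short-day library C of ZT 4 (-0.39, adjusted p = 0.0230). miR164b-3p had medians of 7.87, 7.78 and 7.05 CPM in long, equinox and short days, and a long-against-short value of 0.34 ± 0.23 (adjusted p = 0.273).

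**Figure D2:**
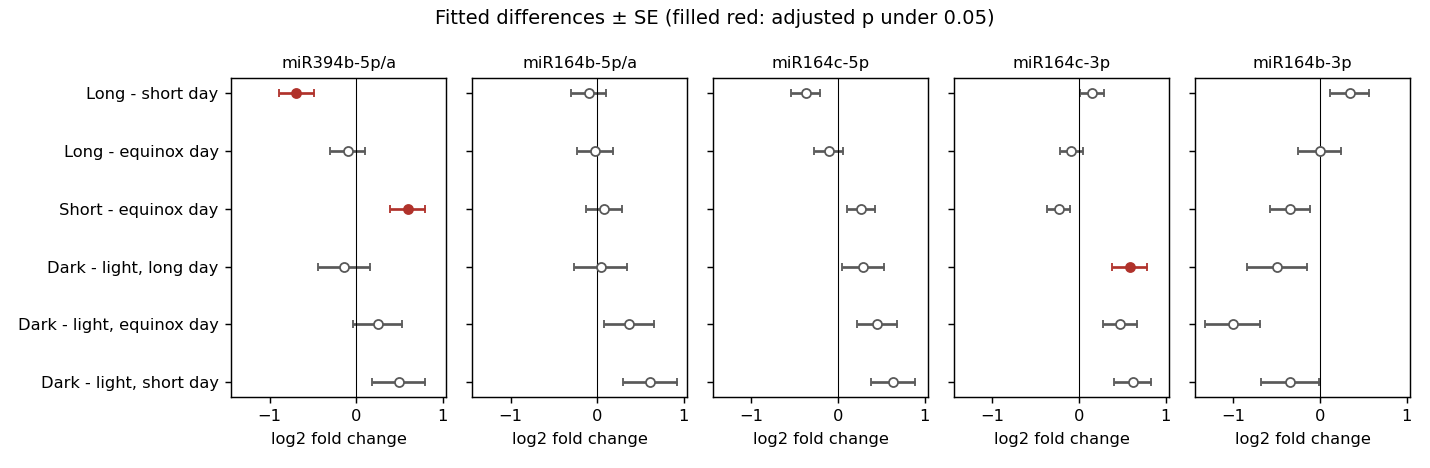
Fitted log2 fold changes (x axis, points with bars of 1 SE) of the 5 rows, 1 panel each, in 6 comparisons (y axis): 3 between photoperiods and dark minus light within each photoperiod. Filled red points passed an adjusted p of 0.05: miR394 at -0.69 and 0.59 in the 2 comparisons with short days, and miR164c-3p at 0.59 between dark and light in long days.

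Within a day, the median of miR164c-3p was higher in the dark than in the light samples of each photoperiod, and the difference passed in long days. Here the sample taken at lights-off counts as light and that of ZT 24 as dark. In long days the 12 light libraries ran from 39.2 to 90.4 CPM (median 68.7) and the 6 dark libraries from 66.1 to 120.3 (median 104). Only 1 of the dark libraries, C of ZT 20 at 66.1 CPM, lay below 90.4, the highest light library. Of all features, 14.4% passed dark minus light in long days, and 1 of the 5 rows did: miR164c-3p at 0.59 ± 0.20 (adjusted p = 0.0429).

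That call was lost in 53 of 54 fits that left out a single library and was kept only without the short-day library C of ZT 4 (0.56, adjusted p = 0.0493), while the fold change stayed between 0.42 and 0.60. The highest adjusted p over those fits was 0.266. It was also lost with DESeq2's size factors (0.50, adjusted p = 0.0539), with the genome entry counted in the totals (0.37, adjusted p = 0.304), and without the 5 short-day libraries apart (0.47, adjusted p = 0.118). The count of all features called in this comparison moved too, from 1277 to between 98 and 1415 in fits that left out libraries.

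In equinox days the 9 light libraries of miR164c-3p ran from 56.4 to 88.7 CPM (median 64.4) and the 9 dark libraries from 68.7 to 152.2 (median 82.7). In short days the 6 light libraries ran from 30.2 to 94.1 CPM (median 42.1) and the 12 dark libraries from 50.6 to 135.6 (median 78.5). The fold changes, 0.47 ± 0.19 and 0.62 ± 0.21, were of the size seen in long days and did not pass (adjusted p = 0.212 and 0.107). Without the short-day library C of ZT 4, the highest of the light libraries at 94.1 CPM, the short-day value was 0.94 (adjusted p = 0.00600).

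Dark minus light passed for 4.67% of the features in equinox days and for 4.04% in short days, and for 0 of the 5 rows in either by edgeR. At an unadjusted p under 0.05 edgeR held 2 rows in each, a level at which the share of all features was not worked out. DESeq2 called 2 rows in equinox days, beside 5.38% of all features, and 1 in short days, beside 4.68%. Whether the dark-minus-light value of miR164c-3p differs between photoperiods was not tested.

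miR164b-3p, the other 3p row, had dark-minus-light values of the opposite sign in each photoperiod, and none passed. In equinox days its 9 light libraries ran from 5.68 to 24.2 CPM (median 9.91) and its 9 dark libraries from 1.503 to 14.6 (median 5.96), with a fold change of -1.01 ± 0.32 (adjusted p = 0.0566). DESeq2 called it (-0.98, adjusted p = 0.0375), as did edgeR without any 1 of 3 equinox libraries: C of ZT 8, C of ZT 16 and A of ZT 20 (adjusted p 0.0362 to 0.0457). In long and short days the values were -0.50 ± 0.34 (adjusted p = 0.354) and -0.35 ± 0.33 (adjusted p = 0.800). With 4 to 75 counts a library, this row has the widest relative counting error of the 5.

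Dark minus light for miR164c-5p was 0.29 ± 0.25 in long, 0.45 ± 0.23 in equinox and 0.63 ± 0.25 in short days, with adjusted p of 0.476, 0.412 and 0.227. For the shared row of miR164a and miR164b-5p it was 0.039 ± 0.31, 0.37 ± 0.29 and 0.61 ± 0.32, and for miR394 -0.14 ± 0.30, 0.25 ± 0.28 and 0.49 ± 0.31, none of which passed. The median over the 5 rows was 0.039 in long, 0.37 in equinox and 0.61 in short days, beside 0.11, -0.00015 and 0.038 over all features. Over the 149 microRNA rows it was 0.029, 0.17 and 0.25.

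Along the day, the miR164c-3p means were lowest at ZT 4 or ZT 8 and highest at ZT 16 or ZT 24. In long days the mean was lowest at ZT 4, at 39.2, 45.1 and 50.4 CPM in the 3 libraries, and highest at ZT 24, at 103, 120.3 and 105, which is a 2.43-fold ratio of means without overlap. In equinox days it was lowest at ZT 4 (56.4, 63.5 and 64.4 CPM) and highest at ZT 24 (152.2, 82.7 and 127), again without overlap and with a 1.96-fold ratio. In short days it was lowest at ZT 8 (39.1, 63.6 and 45.1 CPM) and highest at ZT 16 (135.6, 79.6 and 106), a 2.17-fold ratio and also without overlap. These times were picked as the extremes of the same values, which favours a lack of overlap. In short days the ZT 4 libraries gave 30.2, 35.6 and 94.1 CPM, with a median below the 45.1 CPM of ZT 8. The joint test of all 6 times, which picks no time, gave adjusted p of 0.0908, 0.344 and 0.199 in long, equinox and short days.

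miR394 and the shared row of miR164a and miR164b-5p had their highest and lowest means at the same times in long days (ZT 4 and ZT 8) and in short days (ZT 24 and ZT 8), and both were highest at ZT 8 in equinox days. For miR394 the ratio of the highest to the lowest mean was 1.95 in long, 2.62 in equinox and 2.17 in short days. For miR164b-3p the highest mean fell at ZT 16 in long days (15.4 CPM; 16.2, 13.7 and 16.4 in the libraries), at ZT 8 in equinox days (17.7 CPM) and at ZT 16 in short days (9.50 CPM). The ratio was 3.73 in equinox days, where single libraries ran from 1.503 to 24.2 CPM.

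The joint test of time passed for 13.3% of the features in long days, 5.2% in equinox days and 3.99% in short days, and for 0 of the 5 rows in each. At an unadjusted p under 0.05, edgeR held 1 row in long, 3 in equinox and 2 in short days. The share of all features at that level was not worked out. DESeq2 called 1, 2 and 1 of the 5 rows, beside 18.7%, 10.1% and 5.91% of all features. The smallest adjusted p by edgeR was that of miR164b-3p in equinox days, 0.0847. miR164c-3p was called by DESeq2 in all 3 photoperiods (adjusted p = 0.00507, 0.0221 and 0.00557 in long, equinox and short days).

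The test of whether the time course differs between photoperiods passed for 5.92% of the features and for 0 of the 5 rows. At an unadjusted p under 0.05 edgeR held 2 rows, a level at which the share of all features was not worked out. DESeq2 called 2 rows, beside 16.2% of all features: miR394 (adjusted p = 0.0923 by edgeR and 0.0165 by DESeq2) and the shared row of miR164a and miR164b-5p (0.167 and 0.0448). The edgeR value for miR394 passed without the equinox library A of ZT 24 (adjusted p = 0.0444) or without the short-day library A of ZT 4 (adjusted p = 0.0313). For miR164c-3p the adjusted p was 0.417.

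In the counts, the 3p arm of miR164c outnumbered its 5p arm in every library. In the hairpin printed above the 5p arm carries the sequence that pairs with the NAC transcripts, and the 3p arm is its partner in the duplex. Summed over all libraries there were 3.83 miR164c-3p reads for each miR164c-5p read (9781 against 2551 counts), and the ratio was above 1 in 54 of 54 libraries, from 1.29 to 10.3. miR164c-5p differs from miR164a and miR164b-5p only at base 21, and the counting rule is not given. The ratio therefore depends on how reads were assigned between these rows.

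By photoperiod the summed ratio was 4.56 in long days (libraries 1.92 to 6.34), 4.17 in equinox days (2.29 to 10.3) and 3.03 in short days (1.29 to 4.71). The photoperiods overlapped, and the difference was not tested. At ZT 24 the 3 short-day libraries had ratios of 2.16, 2.21 and 2.34, while the long-day libraries had 5.09, 5.27 and 6.34 and the equinox libraries 4.60, 6.08 and 6.70. At ZT 12 the long-day ratios of 5.44, 5.49 and 5.74 also lay above the short-day ratios of 2.5, 2.80 and 3.85. At ZT 4, 8, 16 and 20 the long-day and short-day ratios overlapped. They ran from 1.92 to 3.05 in long and 1.29 to 4.38 in short days at ZT 4. At ZT 8 they ran from 3.66 to 4.86 and 2.73 to 4.25. At ZT 16 the spans were 3.69 to 5.52 and 3.75 to 4.71, and at ZT 20 3.46 to 5.4 and 3.15 to 3.66.

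For miR164b the arms stood the other way, although the 5p row also holds the reads of miR164a. That row had 3.25 reads for each miR164b-3p read over all libraries, and more in 54 of 54. The shared row had 1.48 reads for each miR164c-5p read, with more in 48 of 54 libraries. miR394 had 2.40 reads for each read of the shared row, 2.03 in long, 2.12 in equinox and 3.00 in short days.

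**Figure D3:**
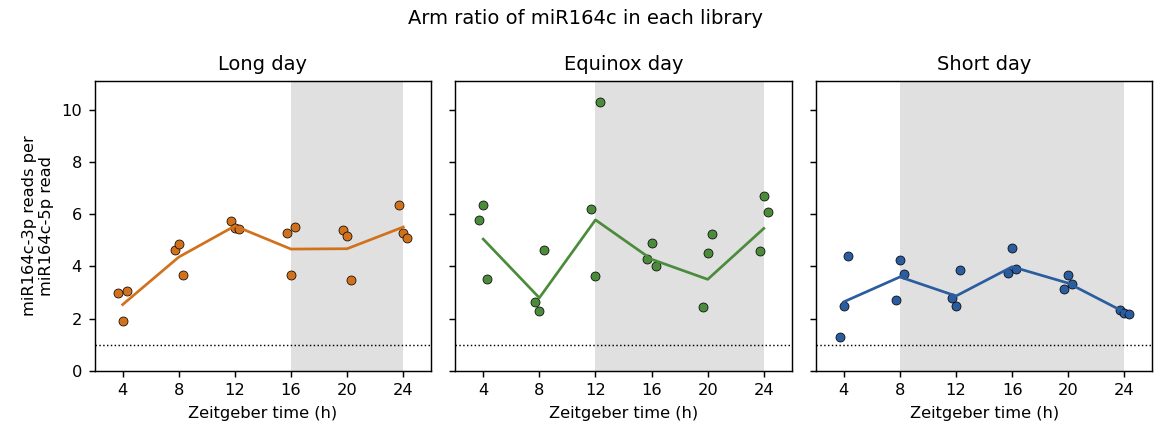
Reads of miR164c-3p for each read of miR164c-5p (y axis, from 0) against Zeitgeber time in hours (x axis), 1 panel a photoperiod. Points are libraries, lines join the ratios of summed counts, grey marks the dark period and the dotted line marks a ratio of 1. All libraries lie above that line. The short-day libraries at ZT 24 sit between 2.16 and 2.34, below the long-day libraries at 5.09 to 6.34. At ZT 4, 8, 16 and 20 the long-day and short-day libraries overlap.

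The 3 rows of 5p microRNAs varied together from library to library, and miR164c-3p followed them less closely. Over the 54 libraries, Pearson's r of log2 CPM between miR394 and the shared miR164a and miR164b-5p row was 0.81 (Spearman's rho 0.79). Without the 2 libraries farthest from the median of that shared row, r was 0.77. Between miR394 and miR164c-5p r was 0.70 (rho 0.64), and between the miR164 5p rows 0.75 (rho 0.71). Between miR394 and miR164c-3p r was 0.021 (rho 0.073), and between the arms of miR164c 0.41 (rho 0.46). miR164b-3p had r of 0.38 with the shared row, 0.28 with miR394 and 0.043 with miR164c-5p.

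These correlations describe 54 libraries in 18 groups, and rows of 1 library share its depth, its size selection and its scaling. With the mean of each group removed, r was 0.85 for miR394 against the shared row, 0.65 against miR164c-5p, 0.71 against miR164b-3p and 0.31 against miR164c-3p. For the shared row it was 0.79 against miR164b-3p and 0.73 against miR164c-5p. Within groups the joint movement was thus not limited to the 5p rows. The log2 levels also moved with the share of microRNAs among the counts outside the genome entry, with r of 0.57 for the shared row, 0.59 for miR164c-5p, 0.41 for miR394, 0.45 for miR164c-3p and 0.17 for miR164b-3p. The part of that share in the results above was not tested.

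Single libraries show the joint movement. The equinox library A of ZT 20 was the highest of its photoperiod in all 3 5p rows, at 175.2 CPM for miR394, 78.0 for the shared row and 35.1 for miR164c-5p. Its miR164c-3p level of 85.7 CPM lay near the 76.6 and 82.6 CPM of the other libraries of that time. Its miR164b-3p level of 10.1 CPM lay above the 1.503 and 5.96 CPM of those libraries. MicroRNA reads made up 14.2% of its counts outside the genome entry, against 10.4% and 11.2% in libraries B and C of that time. The long-day library B of ZT 4 was also the highest of long days in all 3 rows, at 92.9, 54.4 and 23.5 CPM. Its microRNA share was 9.07%, between the 9.97% and 7.75% of libraries A and C of that time. The short-day library B of ZT 24 was the highest of short days for miR394 and the shared row. Its microRNA share was 14.0%, against 13.8% and 9.67% in libraries A and C of that time.

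**Figure D4:**
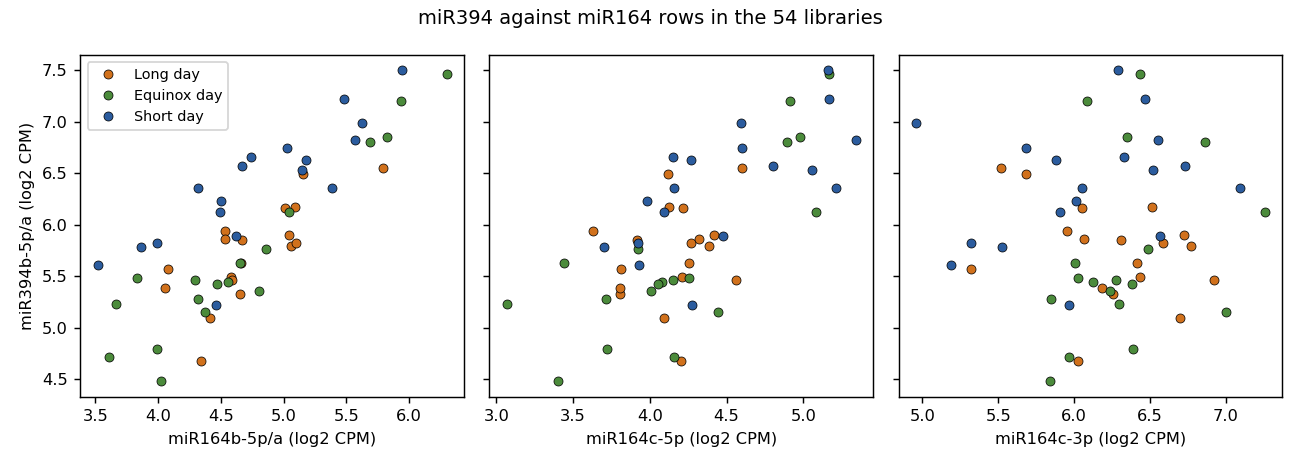
miR394 (y axis, log2 CPM) against the shared miR164a and miR164b-5p row, miR164c-5p and miR164c-3p (x axes, log2 CPM) in 54 libraries, coloured by photoperiod. The first 2 panels slope upward, with r of 0.81 and 0.70, and the panel of miR164c-3p shows no slope, with r of 0.021.

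Over the 18 group means, the microRNA rows most like miR394 were miR173-5p (r = 0.99), which starts the production of trans-acting siRNAs, the row of miR167a-5p and miR167b (0.98), which acts on auxin response factor transcripts, and miR396a-5p (0.97), which acts on growth-regulating factor transcripts. For the shared miR164a and miR164b-5p row they were miR824-3p (0.88), miR837-3p (0.85) and the miR167a-5p and miR167b row (0.84). For miR164c-5p they were miR156b-3p (0.88), miR159c (0.87) and miR823 (0.85). For miR164b-3p they were miR396a-3p (0.84), miR396b-3p (0.80) and miR168a-3p (0.77). miR164c-3p had no row as close, the nearest being miR3434-5p (0.68), miR843 (0.62) and miR396b-5p (0.60).

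Other microRNAs of meristem and organ patterning were taken as a list of 20 tested rows of miR165, miR166, miR170, miR171, miR319, miR390 and miR396. Between long and short days 2 of 20 were higher and 5 lower, where 25.1% of all features passed, with a median of -0.16, beside -0.10 over the 5 miR164 and miR394 rows, -0.17 over the 149 microRNA rows and -0.018 over all features. The largest were miR170-3p (-1.24 ± 0.34, adjusted p = 0.00670), which belongs to the family that acts on HAIRY MERISTEM transcripts, and miR390b-3p (0.81 ± 0.18, adjusted p = 0.000864). The mean level of miR170-3p was 2.34 CPM, below the 8.84 CPM of miR164b-3p, so its value rests on few counts.

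Between long and equinox days, where 15.7% of all features passed, 0 of 20 were higher and 2 lower: the miR166 row (-0.47 ± 0.13, adjusted p = 0.00615) and the miR165 row (-0.39 ± 0.13, adjusted p = 0.0406), which act on class III homeodomain leucine-zipper transcripts. Between short and equinox days, where 32.8% passed, 2 were higher and 3 lower, the largest being miR171b-5p (0.70 ± 0.20, adjusted p = 0.00523) and miR171a-3p (0.65 ± 0.19, adjusted p = 0.00748). Dark minus light passed for 1 of 20 rows, a lower one, in each photoperiod, beside 14.4%, 4.67% and 4.04% of all features in long, equinox and short days.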

How the data were processed

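Small RNAs of up to 40 nucleotides were selected on a gel and made into libraries with the NEBNext Small RNA kit, per the labels' protocols. The deposited table holds whole-number counts of reads per row for 54 libraries, in 286 microRNA rows, other small RNA rows and 1 genome entry. Per the submitters' processing notes, cutadapt 3.4, Bowtie2 2.5.1 and SAMtools were used. No source used here gives their settings, the genome build or the rule for reads that match several loci, so a shared row cannot be split between its loci.

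The genome entry was left out of totals and tests. Rows were filtered with edgeR's filterByExpr (minimum count 10, minimum total 15), which kept 8869 rows with 98.1% of the counts outside the genome entry. edgeR 4.0.16 (R 4.3.3, limma 3.58.1) fitted a quasi-likelihood model with TMM factors to all 18 groups at once, with 36 residual degrees of freedom, and p-values were adjusted by Benjamini-Hochberg over all rows of a comparison. The 16 comparisons were the 3 pairs of photoperiods averaged over times, the joint test of time and dark minus light in each photoperiod, the interaction of photoperiod and time, and long against short day at each time. The script was tested on simulated data. DESeq2 1.42.0 was an alternative. The alternatives changed the scaling, the filter, the test, a block for replicate letters and the libraries kept.

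The families, lists and tests were chosen with earlier results of these data known. Named rows are all rows of both families, up to 2 rows of the comparison list per photoperiod contrast, the 3 microRNA rows most alike over 18 group means, and the neighbours in level. Sequences and sites come from RefSeq's TAIR10.1 genome and annotation.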

Additional observations from a re-analysis of the deposited data

How the results depend on the processing

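Of the 3 calls among the 5 rows, miR394 in long against short days (-0.79 to -0.57) and in short against equinox days (0.58 to 0.71) each passed under 9 of 10 settings other than leaving out libraries, missing without a filter (adjusted p = 0.0512 and 0.0707). The dark-minus-light call of miR164c-3p in long days passed under 5 of 10 (0.37 to 0.87). Among the 5 rows, 2 passed long against short day with DESeq2 size factors (27.1% of all features passed), with DESeq2's test (29.3%) and without the 5 short-day libraries apart (11.5%). With microRNAs fitted alone 3 passed (47.6% of 145 microRNA rows), and without a filter 0 (0.767%). Shares in brackets below are likewise those of all features under the same setting, or of the 145 microRNA rows where these were fitted alone. Short against equinox day held 3 rows with microRNAs alone (42.1%), 2 with the genome entry's share as a covariate (35.8%) and 0 without a filter (1.11%). Time in long days held 1 row without TMM factors (15.9%), with microRNAs alone (18.6%), with DESeq2 (18.7%) and with the covariate (4.04%). Time in short days held 1 row under the same settings (4.98%, 16.6%, 5.91% and 4.24%). Time in equinox days held 3 rows without TMM factors (7.34%), 3 with microRNAs alone (24.8%) and 2 with DESeq2 (10.1%). The interaction held the same numbers of rows (13.2%, 26.2% and 16.2%). Dark minus light in long days held 0 rows with DESeq2 size factors (13.9%), the genome entry in the totals (12.2%) and the 10 most abundant rows left out (13.3%). It also held 0 with the 5 libraries left out (14.9%) and no filter (0.161%). In equinox days it held 2 rows with microRNAs alone (13.8%) and with DESeq2 (5.38%) and 1 with the covariate (5.90%). In short days it held 1 row without TMM factors (4.37%) and under those 3 settings (13.1%, 4.68% and 3.80%). With microRNAs alone long against short day held 3 rows at ZT 12 (26.9%), 1 at ZT 16 (17.9%) and 2 at ZT 24 (17.9%). With DESeq2 it held 1 at ZT 24 (2.64%). Leaving out libraries, from 0 to 1 rows passed in long against short day and from 0 to 2 in short against equinox day. From 0 to 1 passed in dark minus light in each photoperiod, in time in equinox and short days and in the interaction. In these fits the count of all features called moved too. It ranged from 899 to 2643 in long against short day and from 1254 to 3484 in short against equinox day. In dark minus light it was 98 to 1415 in long days, up to 493 in equinox days and 178 to 423 in short days. In time it was 76 to 555 in equinox and 128 to 407 in short days, and 12 to 890 in the interaction. The cause of these moves was not tested. The 5 libraries and the covariate were chosen after seeing the data.

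Signs turned only for values that had not passed. In long against equinox days the shared miR164a and miR164b-5p row (ath-miR164b-5p_ath-miR164a), ath-miR164b-3p, ath-miR164c-5p, ath-miR164c-3p and miR394 (ath-miR394b-5p_ath-miR394a) turned to 0.13, 0.15, 0.059, 0.074 and 0.058 with the genome entry in the totals and to 0.19, 0.21, 0.091, 0.067 and 0.14 with microRNAs alone, the first of them to 0.021 and the second to 0.0010 with the replicate block, and to 0.028 and 0.052 without a filter. In dark minus light in long days the shared row turned to -0.040 with DESeq2 size factors and DESeq2's test, -0.17 with the genome entry in the totals, -0.070 without the 10 most abundant rows, -0.074 without the 5 libraries and -0.018 without a filter, and miR394 to 0.070 without TMM factors. In long against short days the shared row turned to 0.038 with microRNAs alone and ath-miR164c-3p to -0.036 without the 5 libraries. At ZT 4 miR394 turned to 0.021 with the replicate block and 0.020 without a filter, and at ZT 12 ath-miR164c-3p to 0.18, 0.088, 0.025 and 0.014 with the genome entry in the totals, microRNAs alone, the 10 most abundant rows left out and no filter. Leaving out libraries turned 12 values. Their ranges were, for the shared row, -0.34 to 0.16 in long against short days, -0.16 to 0.28 in long against equinox days, -0.072 to 0.21 in short against equinox days and -0.087 to 0.12 in dark minus light in long days. They were -0.13 to 0.094 for ath-miR164b-3p, -0.25 to 0.047 for ath-miR164c-5p and -0.22 to 0.14 for miR394 in long against equinox days, and -0.092 to 0.65 for miR394 in dark minus light in equinox days. At single times they were -0.55 to 0.40 (ZT 4) and -0.16 to 0.14 (ZT 12) for ath-miR164c-3p, and -0.48 to 0.73 (ZT 4) and -0.79 to 0.10 (ZT 20) for miR394.

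With the genome entry in the totals the median of all features moved by 0.20 in long against equinox and 0.13 in long against short days, by -0.24 and -0.19 in dark minus light in long and short days, and by 0.27 and 0.23 in long against short days at ZT 12 and ZT 16. Without TMM factors it moved by 0.34 at ZT 20 and by 0.19 in dark minus light in long days. Setting aside the fit of microRNAs alone, the count of all features called moved by over 1.5 times in long against short days (2229, and 1065 without the 5 libraries), time in long days (1180, 358 with the covariate and 589 without a filter), time in equinox days (461, and 897 with DESeq2), the interaction (525, 1170 without TMM factors, 1434 with DESeq2 and 329 with the covariate), and dark minus light in long days (1277, 436 with the covariate and 361 without a filter), and at single times, where it ranged from 10 to 71 at ZT 4, 59 to 163 at ZT 8, 83 to 362 at ZT 12, from 0.0765% of 223651 rows without a filter to 449 rows at ZT 16, 47 to 211 at ZT 20 and 6 to 234 at ZT 24. The replicate letters share only a letter: the median correlation of deviations between same-letter libraries was -0.01 over 459 pairs, of which 156 were over 0.1, and 16 of 54 libraries lay closest to their own letter. The replicate block changed none of the 80 calls and gave -0.67 (adjusted p = 0.0145) for miR394 in long against short days. Depth limits ath-miR164b-3p most, at 4 to 75 counts a library.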
